A study of Drosophila melanogaster with 2 samples.

Results

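The genes tara, cbt, Lk6, Kdm2, larp, pont, Alh and crp are 8 of the 13968 protein-coding genes on the chromosome arms of Drosophila melanogaster. They were chosen by their values in the deposited peak lists, namely strong tramtrack-GFP peaks that passed the score but were left out of the thresholded list. Each gene was taken with 5 kb on both sides. Within these limits, the authors' ranked list built from both replicates held 41 peak summits at a score of 830 or more. Of these, 25 were missing from the authors' conservative list and are called absent here, and 16 stood in it with the same start, end and summit and are called present. Absence and signal chose the genes, so both are described and neither was tested.

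The study mapped chromatin bound by tramtrack (ttk), a repressor of transcription with a BTB domain and zinc fingers, by ChIP-seq in whole embryos aged 0 to 24 h. The embryos came from a transgenic fly strain, ttk-GFP, whose protein is fused to eGFP. Precipitation was with anti-GFP, whereas the antibody field of the labels reads ttk, and the chromatin was sonicated to 200 to 800 bp. The series has 1 group of 2 libraries, labelled as biological replicates 1 and 2 and drawn from a single strain, and no control library or untagged strain was analysed here. Every value therefore averages over all cell types and a whole day of embryogenesis, and no value below separates precipitated chromatin from background. The files hold peaks and no read counts, so the depth behind a signal is unknown.

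The 8 genes have different known functions. The gene tara encodes taranis, a trithorax-group protein of the SERTAD family with roles in the cell cycle. The gene cbt encodes cabut, a zinc-finger transcription factor of the KLF family that acts in dorsal closure of the embryo. Lk6 is the fly kinase that phosphorylates the translation initiation factor eIF4E. Kdm2 is a JmjC-domain histone demethylase found with Polycomb group proteins. The gene larp encodes the RNA-binding La-related protein, pont the ATPase pontin of the INO80 and Tip60 chromatin complexes, Alh a PHD-finger protein of the AF10 family, and crp the bHLH leucine-zipper factor cropped, the fly AP-4. Repressors of the tramtrack kind bind DNA through their zinc fingers and pair through the BTB domain, and in the embryo tramtrack is known for holding back neuronal fates.

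The sequence around the strongest absent summit of each gene is shown because these are the sites the conservative list leaves out. Each stretch is 151 bp of the plus strand of dm6, from the RefSeq copy of that assembly, with the summit at base 76. Letters are lower case, and capitals mark matches on either strand to the motifs searched, which are described further on.
cbt, chr2L:481021-481171: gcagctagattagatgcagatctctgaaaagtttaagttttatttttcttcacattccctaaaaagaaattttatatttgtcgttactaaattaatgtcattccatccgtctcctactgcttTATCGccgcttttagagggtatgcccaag
Lk6, chr3R:11760972-11761122: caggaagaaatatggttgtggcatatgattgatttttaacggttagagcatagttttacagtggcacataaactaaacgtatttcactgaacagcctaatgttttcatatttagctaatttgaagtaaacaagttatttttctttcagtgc
larp, chr3R:28326531-28326681: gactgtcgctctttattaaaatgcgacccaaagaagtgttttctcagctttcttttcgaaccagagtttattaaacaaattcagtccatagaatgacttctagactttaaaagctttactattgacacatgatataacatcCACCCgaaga
tara, chr3R:16236902-16237052: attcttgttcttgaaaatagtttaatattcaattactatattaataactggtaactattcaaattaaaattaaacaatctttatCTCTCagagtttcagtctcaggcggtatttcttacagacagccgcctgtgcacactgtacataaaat
pont, chr3R:10261924-10262074: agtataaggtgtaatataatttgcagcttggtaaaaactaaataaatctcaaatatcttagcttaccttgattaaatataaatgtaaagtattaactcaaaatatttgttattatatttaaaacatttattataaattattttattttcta
Alh, chr3R:7108937-7109087: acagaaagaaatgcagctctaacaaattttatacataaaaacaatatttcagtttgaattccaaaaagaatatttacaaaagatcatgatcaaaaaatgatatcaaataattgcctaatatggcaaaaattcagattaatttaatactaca
Kdm2, chr3R:9057482-9057632: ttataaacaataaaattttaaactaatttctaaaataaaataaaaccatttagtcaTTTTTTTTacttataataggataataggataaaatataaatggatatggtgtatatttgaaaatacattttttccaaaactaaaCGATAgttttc
crp, chr2L:16285797-16285947: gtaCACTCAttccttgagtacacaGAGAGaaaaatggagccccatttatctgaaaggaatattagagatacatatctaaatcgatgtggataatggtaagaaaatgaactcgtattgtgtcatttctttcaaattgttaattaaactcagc
None of the stretches entered an annotated UTR. Their A+T content ran from 64.9% at cbt and larp to 82.8% at Kdm2 and pont. The stretches of Lk6, pont and Alh held no match to any motif searched. A GAGAG match stood in those of tara and crp, a CGATA match in those of cbt and Kdm2, and a CACCC match in that of larp. The stretch of crp also held a TGAGTG match and that of Kdm2 a run of T, matched as AAAAAAAA.

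Among all 3919 ranked peaks at the score, 92 were absent, or 2.35%, and 3827 were present. On the arms these numbers were 83 and 3815. Without replicate 1, on the lists of replicate 2 alone, 6.28% of ranked peaks were absent, and against the larger thresholded list in place of the conservative one 11.5% were. An absent summit lay in or within 5 kb of 119 of the 13968 protein-coding genes (0.852%), and a present summit in or within 5 kb of 5611 (40.2%). The 8 genes thus held 25 of the 83 absent peaks on the arms, which restates how they were chosen. They lie on 2 arms, with 18 of their absent summits on 3R and 7 on 2L. Absent peaks as a whole were unevenly spread as well: they made up 51 of 900 ranked peaks on 3R (5.67%) and 22 of 717 on 2L (3.07%). They made up 4 of 679 on 2R (0.589%), 4 of 832 on 3L (0.481%), 2 of 3 on chromosome 4 and 9 of 21 on unplaced or other scaffolds. On X there were 0 of 767, which allows a share of up to 0.391% and covers counting error alone.

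The word strong holds for most of the genes, but not for all of their summits. The median signal was 234 over the 25 absent summits of the 8 genes, 114 over their 16 present summits, 130 over the 58 absent peaks elsewhere on the arms and 122 over all 3815 present peaks. Signals of the 25 ran from 19.7 to 1986, and 19 of them were at or above that median of present peaks. Of the 9 absent peaks on the arms with a signal of 500 or more, 7 belonged to the 8 genes. Of the strongest 10, 25, 100 and 500 ranked peaks of the list, 1, 2, 5 and 12 were absent, and 1, 2, 4 and 9 of these belonged to the 8 genes. At the score limit, the lowest scores kept were 884 at crp and 960 at tara, and 22 of the 25 absent summits had the highest score, 1000. Just outside it lay ranked peaks with scores of 816 at larp (signal 71.7), 808 at Lk6 (signal 56.7) and 796 at pont (signal 63.7), and the next were 638 at Alh and 520 at tara. For 7 of the 8 genes the strongest summit of all was an absent one, tara being the exception, and cbt, Lk6 and Kdm2 had absent summits alone.

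**Figure D1:**
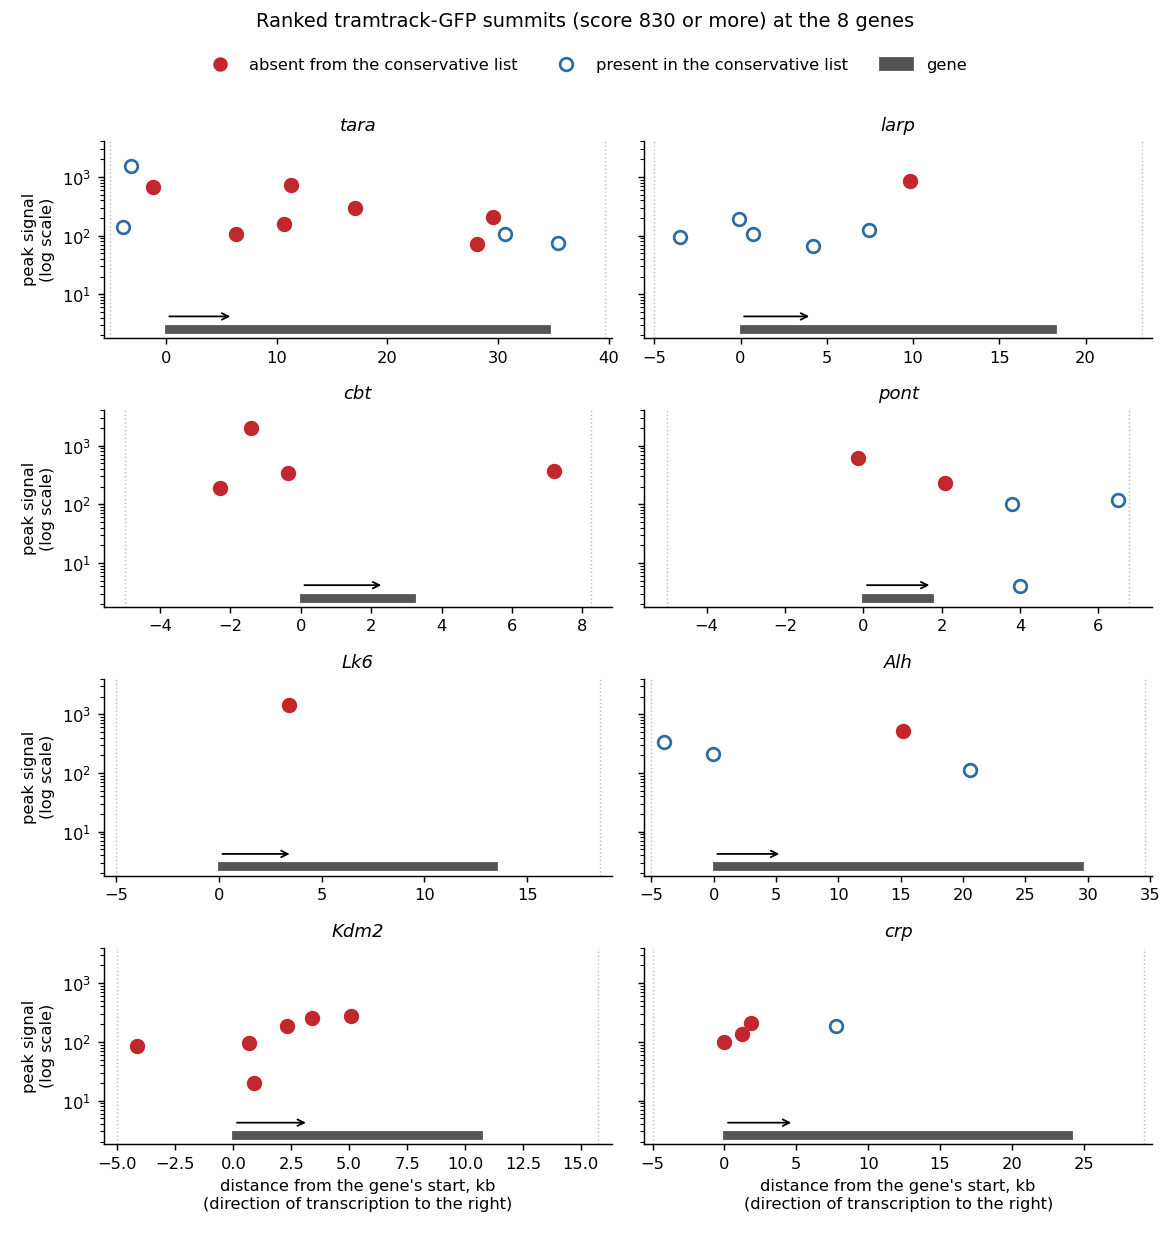
Each panel shows one of the 8 genes (grey bar, transcribed left to right), with every ranked summit at a score of 830 or more placed by distance from the gene's start in kb (x axis) and by the authors' peak signal on a log scale (y axis). Filled circles are absent from the conservative list and open circles are present in it, and dotted lines mark 5 kb on each side. At cbt, Lk6 and Kdm2 all circles are filled, and at tara the highest circle is open.

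The strongest absent summit of the whole list lay beside cbt (FBgn0043364, 2L:476446-479688, minus strand, 3243 bp). It stood at -1408 bp from the cbt transcription start site (TSS), with negative values meaning upstream, in the peak 2L:480924-481258, and ranked 3 among all ranked peaks with a signal of 1986. Its signal was 997 in replicate 1 and 1045 in replicate 2, and it ranked 2 and 3 in the replicates' own lists. The values of the replicates were close, with a log2 ratio of replicate 1 to replicate 2 of -0.07. The site lies upstream of cbt and, by the annotation, inside an intron of ush, which encodes the GATA cofactor u-shaped. Another 2 absent summits lay inside ush, one on each side of it. The one at -365 bp, in the cbt promoter, had 184 in replicate 1 and 152 in replicate 2. The one at -2292 bp had 90.3 in replicate 1 and 99.9 in replicate 2. The fourth lay 3964 bp beyond the end of cbt, at -282 bp from a TSS of the neighbouring gene CG4297, with 200 in replicate 1 and 167 in replicate 2. All 4 were outside cbt itself, and MED15, which encodes a Mediator subunit, lay within 5 kb of 3 of them. No present summit lay within 5 kb of cbt, and the 14 further ranked peaks there had scores of at most 204.

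Lk6 (FBgn0017581, 3R:11750931-11764457, minus strand, 13527 bp) had a single summit at the score, and it was absent. It lay in an intron at -968 bp from the nearest of the 2 TSSs of Lk6, in the peak 3R:11760908-11761184, and ranked 12 in the list with a signal of 1442. Signals were 706 in replicate 1 and 738 in replicate 2, ranked 12 and 13 in the own lists. As at cbt, both replicates gave nearly the same value, with a log2 ratio of -0.06. The zinc-finger gene l(3)neo38 also lay within 5 kb of it. The other 30 ranked peaks at Lk6 had scores of 808 or less.

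Kdm2 (FBgn0037659, 3R:9052495-9063245, plus strand, 10751 bp) had 6 absent summits, 5 of them in the gene, and none that was present. They were weaker than those of cbt and Lk6. The strongest, in an intron 4266 bp past the nearest TSS (3R:9057532-9057657), had a signal of 274, with 187 in replicate 1 and 94.6 in replicate 2. The next, also intronic, had 253, with 148 in replicate 1 and 103 in replicate 2. Another intronic summit had 188, with 109 in replicate 1 and 93.0 in replicate 2. Replicate 1 was the higher one at all 3, by a log2 ratio of 0.98, 0.52 and 0.23. At the promoter, a summit at -114 bp had a signal of 95.9, with 45.8 in replicate 1 and 56.3 in replicate 2. An overlapping peak at 90 bp past the same TSS had 19.7, the lowest of the 25, and ranked 70385 in the list. It had no match in replicate 1 and matched the same peak as its neighbour in replicate 2, so the pair may be counted as 1 site. The last summit was at -4162 bp, with 36.1 in replicate 1 and 52.5 in replicate 2. It lay inside Nmdmc, which encodes a folate-pathway dehydrogenase, and at -312 bp from a TSS of Mst85C. Rel, the NF-kB gene Relish, also lay within 5 kb of it.

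Of the 8 genes, tara (FBgn0040071, 3R:16225651-16260329, plus strand, 34679 bp) had the most summits, with 7 absent and 4 present. The strongest absent summit lay in an intron, at -5839 bp from the nearest TSS of tara (3R:16236810-16237138). Its signal was 730, with 405 in replicate 1 and 320 in replicate 2. A second lay upstream of the gene at -1152 bp (3R:16224363-16224632), with 669, and 388 in replicate 1 and 288 in replicate 2. Replicate 1 was higher at both, by a log2 ratio of 0.34 and 0.43. The strongest summit at tara was a present one at -3165 bp, with a signal of 1507, and 732 in replicate 1 and 756 in replicate 2. It lay 2013 bp from the nearest absent summit, so peaks of both kinds with high signals in both replicates stood close together upstream of this gene.

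The other absent summits of tara lay inside the gene and were weaker. At the promoter of its internal TSS, at -124 bp, the signal was 291, with 199 in replicate 1 and 86.1 in replicate 2. An intronic summit further downstream had 211, with 147 in replicate 1 and 55.7 in replicate 2. Both had more than a 2-fold higher signal in replicate 1, at log2 ratios of 1.21 and 1.40. The last 3 had signals of 159, 105 and 72.9. For the one at 105 the scores in the own lists of replicates 1 and 2 were 513 and 30. For the one at 72.9 they were 798 and 674. Both summits passed 830 in the combined list and in neither replicate alone. The other present summits had signals of 140, 106 and 75.2, and 1 of these, at 106, lay in the gene, 1027 bp from the last absent one.

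The single absent summit of larp (FBgn0261618, 3R:28318162-28336440, minus strand, 18279 bp) lay at -342 bp from one of its 6 TSSs (3R:28326473-28326741). Its signal was 857, with 439 in replicate 1 and 411 in replicate 2, a log2 ratio of 0.09. It ranked 49 in the list, and 58 and 53 in the own lists. The 5 present summits of larp had signals of 65.5 to 191, all below the absent one. The highest of these lay at -116 bp from the first TSS of the gene.

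At pont (FBgn0040078, 3R:10262123-10263899, plus strand, 1777 bp), the stronger of 2 absent summits lay in the promoter at -124 bp (3R:10261859-10262114). Its signal was 619, with 373 in replicate 1 and 258 in replicate 2. The other lay 303 bp beyond the gene, at -104 bp from a TSS of the kinase gene Nuak, and had 234, with 98.2 in replicate 1 and 133 in replicate 2. The replicates went in opposite directions here, with log2 ratios of 0.53 and -0.44. The present summits near pont had signals of 117, 103 and 4.07, and all 3 lay in an intron of Nuak. The peaks at 103 and 4.07 overlapped and matched the same peak in replicate 2. The one at 4.07 had no match in replicate 1, so this pair too may be counted as 1 site. Sirt6, which encodes a sirtuin, was a further neighbour of the absent pair.

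Alh (FBgn0261238, 3R:7094596-7124185, minus strand, 29590 bp) had 1 absent summit, in an intron at -588 bp from a TSS (3R:7108905-7109137). The signal was 520, with 287 in replicate 1 and 225 in replicate 2, a log2 ratio of 0.35. Present summits had signals of 340 at the promoter of the neighbouring gene CG10068, 208 at -48 bp from the start of Alh, and 111 in an intron. Both kinds of peak therefore stood in the gene, with the absent one the highest. Mlp84B, which encodes a muscle LIM protein, lay within 5 kb of the absent summit.

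Of the 8 genes, crp (FBgn0001994, 2L:16263556-16287730, minus strand, 24175 bp) had the lowest top signal. Its strongest absent summit, in an intron 1858 bp past the TSS (2L:16285822-16285964), had 209, with 110 in replicate 1 and 105 in replicate 2. The summit at 1223 bp had 135, with 94.5 in replicate 1 and 39.1 in replicate 2. The promoter summit at -21 bp had 101, with 33.1 in replicate 1 and 73.6 in replicate 2. The first was nearly equal between replicates, while the other pair differed by more than 2-fold in opposite directions, at log2 ratios of 1.27 and -1.15. A present summit 7773 bp into the gene had 183, with 115 in replicate 1 and 63.0 in replicate 2. The genes pkaap, CG13258 and CG17329 also lay within 5 kb of the promoter summit.

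In the own ranked lists of both replicates, 24 of the 25 absent summits had a matching peak, the exception being the weak overlapping peak at Kdm2. The 2 signals differed by less than 1.5-fold at 19 of the 24 and by more than 2-fold at 4, and replicate 1 was higher at 16. The median log2 ratio of replicate 1 to replicate 2 was 0.25 ± 0.60 (SD across the 24 summits). It was 0.25 ± 0.71 over 14 present summits of the 8 genes, 0.25 ± 0.66 over 54 absent peaks elsewhere and 0.15 ± 0.49 over 3579 present peaks. These medians lie well within the spread of each group. The scaling of the replicates' lists is not given, so a ratio is best read against the 0.15 of all present peaks. In both replicates' own lists, 19 of the 25 absent summits (76%) reached a score of 830, as did 9 of the 16 present summits of the 8 genes, 26 of the 58 absent peaks elsewhere (44.8%) and 2070 of all 3815 present peaks (54.3%). Matches were limited to summits within 150 bp, and of these 15 lay within 10 bp in replicate 1 and 13 in replicate 2. The largest offsets were 42 bp in replicate 1 and 127 bp in replicate 2, and all 6 summits of Kdm2 were more than 10 bp off in replicate 2. With 2 libraries of 1 group, no test of a difference between them was possible, and nothing in the files separates biological from technical spread.

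**Figure D2:**
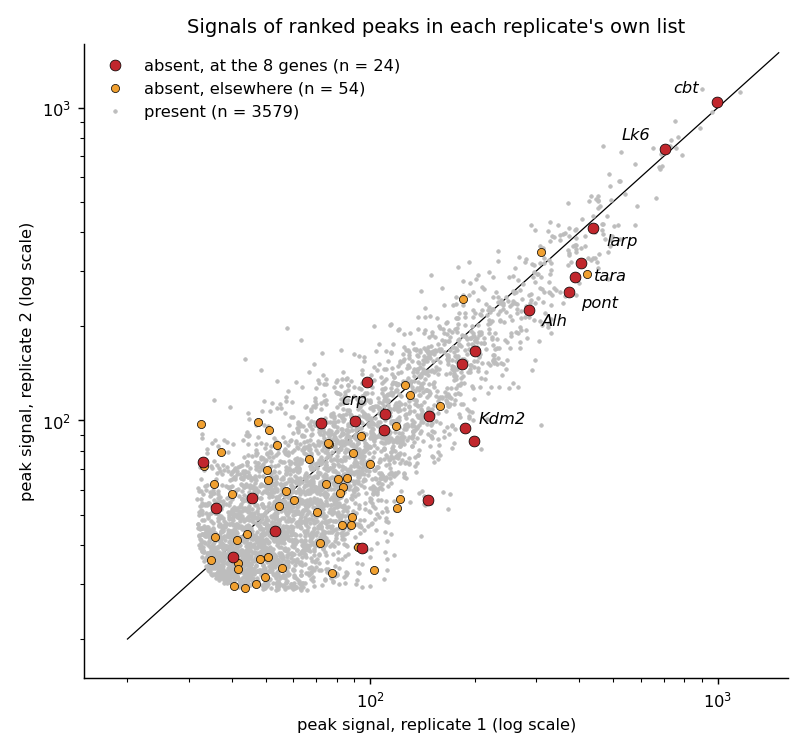
Each point is a ranked peak on the arms at a score of 830 or more, placed by the authors' signal of the matching peak in the own list of replicate 1 (x axis) and of replicate 2 (y axis), both log scales, with a line of equality. Large dark points are the 24 absent summits of the 8 genes found in both lists, medium orange points 54 absent peaks elsewhere and small grey points 3579 present peaks. The summits at cbt (997 and 1045) and Lk6 (706 and 738) sit on the line at the top right, among the strongest present peaks.

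The other thresholded lists left out the same summits, while the ranked lists held nearly all of them. All 25 absent summits stood in the other ranked list of the series, and 0 of the 25 stood in the larger thresholded list, which held 15 of the 16 present summits of the 8 genes and 90.5% of all present peaks. Each replicate also had its own ranked and thresholded lists. In replicate 1, 19 of the 25 reached the score in its own ranked list and 0 of these 19 were in its own thresholded list. In replicate 2, 23 reached the score and 0 of the 23 were in the thresholded list. Present summits of the 8 genes that reached the score were all in the own thresholded list, 13 of 13 in replicate 1 and 11 of 11 in replicate 2. Absent peaks elsewhere on the arms gave 0 of 34 and 1 of 41, and all present peaks 2523 of 2524 and 2612 of 2612. In both libraries, then, the absent summits that reached the score were left out and the present ones were kept. If a thresholded list is a cut of the ranked list at a like score, the keeping of present peaks was largely fixed in advance. The deposited listing names a further source file for the thresholded lists that it does not name for the ranked lists. That file was not analysed here, and its part in the absences was not tested.

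**Figure D3:**
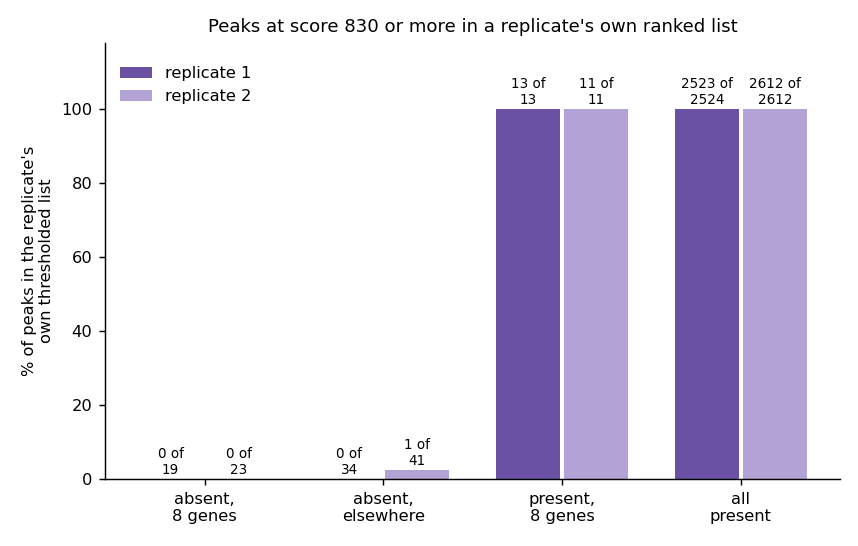
Bars give the percentage of peaks reaching a score of 830 in a replicate's own ranked list that also stand in that replicate's own thresholded list (y axis), for absent and present peaks at the 8 genes and elsewhere (x axis), with counts above the bars. Dark bars are replicate 1 and light bars replicate 2. The bars of the 8 genes' absent summits are at 0 of 19 and 0 of 23, and those of their present summits at 13 of 13 and 11 of 11.

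Absent summits were grouped into runs, and a summit that stood alone was counted as a run too. A run was taken as neighbouring ranked peaks at the score with no present peak between them. The run at tara held 7 peaks over 30718 bp and began 2013 bp after one present summit and ended 1027 bp before another. At Kdm2, 6 peaks covered 9224 bp, with the nearest present summits 14182 bp before and 26008 bp after. The run at cbt held 5 peaks over 10645 bp, 1 of them just past the 5 kb limit, and ended 573 bp and 3896 bp from present summits. At crp 3 peaks covered 1879 bp and at pont 2 peaks covered 2203 bp. The summits of Lk6, larp and Alh stood alone, with a present summit as near as 2374 bp at larp. None of the 8 runs had a peak of any of the 4 thresholded lists inside it. By definition a run has no present peak inside, so this was partly fixed in advance, most of all for lone summits. Over all arms there were 42 runs, 39 of them with no thresholded peak inside. Of the 42, 20 had 2 peaks or more and the rest were lone peaks. Away from the 8 genes the longest run had 4 peaks, so the runs at tara, Kdm2 and cbt were the longest by number of peaks. The genes were chosen for absent peaks, so this in part restates the choice. The 6 at Kdm2 include the overlapping peak that may be 1 site with its neighbour.

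By position, the 25 absent summits lay mostly inside introns and at promoters, taken as within 500 bp of any TSS. There were 14 in introns (56%), 10 at promoters (40%) and 1 between genes. Among the 58 absent peaks elsewhere, 16 were intronic (27.6%) and 30 at promoters (51.7%), and among all present peaks 38.5% and 43.6%. The same classes held 8 and 5 of the 16 present summits of the 8 genes. Of the 10 promoter summits, 3 belonged to neighbours, namely CG4297, Mst85C and Nuak. The peaks of the 25 had a median width of 277 bp, and 10 of them (40%) had the width of 344 bp that 50 of the absent peaks elsewhere (86.2%) and 74.0% of all present peaks had. The 7 with signals of 500 or more were all narrower than 344 bp. By sequence alignment, 0 of the 25 had a second place in the genome with at least 90% identity over at least 100 bp, against 6 of the 58 absent peaks elsewhere (10.3%) and 0.236% of all present peaks. Soft-masked repeats made up a median of 18.9% of the 201 bp around the 25 summits, 14.7% elsewhere among absent peaks and 19.9% among all present peaks. The median A+T content of these windows was 63.7% ± 11.5 (SD across 25 summits), 60.0% ± 10.3 in absent peaks elsewhere and 64.7% ± 8.16 in all present peaks, a difference smaller than the spread within each. It ranged from 34.8% at a Kdm2 promoter summit to 78.1% at the pont promoter.

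Motifs were searched on both strands within 100 bp of each summit, and their shares are descriptions of these positions. The background is given by the 681615 windows of 201 bp that tile the arms. Their A+T content was 57.9%, below the medians of the peak windows given above, and the shares were not matched for it. The core of the site reported for the Ttk69 form of tramtrack, AGGAC, stood at 2 of the 25 absent summits (8%), at tara and pont. It stood in 9.64% of all absent peaks, 9.36% of all present peaks and 21.0% of the tiles. The longer word GGTCCT from the same site was at 0 of the 25, against 1.4% of present peaks and 4.79% of tiles. The site reported for the Ttk88 form, AGGGTGG or AGGGCGG, was at 1, the pont summit beside Nuak (4%), against 2.83% of present peaks and 2.60% of tiles. The GAGA-factor word GAGAG was at 9 of the 25 (36%), in tara, cbt, Lk6, Kdm2 and crp. Within 50 bp it was at 2, where CGATA was at 3. Its share was 36.2% in absent peaks elsewhere, 24.0% in present peaks and 21.6% in tiles. The Zeste word TGAGTG was at 6 (24%), against 12.1% of absent peaks elsewhere, 10.1% of present peaks and 9.26% of tiles. Within 50 bp of the summits TGAGTG was at 1, and within 150 bp at 10. The BEAF-32 word CGATA was at 7 (28%), and 25.8% of present peaks and 21.5% of tiles had it. The DREF word TATCGATA, which contains CGATA, was at 0, against 2.4% of present peaks and 0.568% of tiles.

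The remaining words are given beside their shares in present peaks and tiles. The AP-1 word TGACTCA was at 2 of the 25, in tara and crp (8%), against 6.90% of absent peaks elsewhere, 1.52% of present peaks and 1.58% of tiles. Within 50 bp of the summits TGACTCA was at 0. The KLF-type word CACCC is of the family of cbt itself and part of the AGGGTGG site read on the other strand. It was at 4 (16%) and at none of the 4 cbt summits, against 19.6% of present peaks and 21.3% of tiles. The E-box CAGCTG of the AP-4 type, the family of crp, was at 2 (8%), in pont and crp. Present peaks had it in 8.26% and tiles in 8.33%. The E-box CACGTG was at 1 (4%), in the cbt promoter, against 1.97% of present peaks and 2.4% of tiles. The Zelda word CAGGTA was at 1 (4%), in tara, against 3.80% of present peaks and 4.63% of tiles. Runs of the base A, written as AAAAAAAA, were at 4 (16%), against 16.1% of present peaks and 10.5% of tiles. The word CACACA was at 5 (20%), against 15.3% of present peaks and 15.2% of tiles. ATATATAT was at 0, against 5.11% of present peaks and 3.34% of tiles. Each count rests on 25 windows at 8 genes, and neighbouring windows of 1 gene are not independent.

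A list of 63 measured genes of the same pathways and families held 1 with an absent summit no more than 5 kb away, against 0.852% of all protein-coding genes. It held 32 with a present summit, against 40.2% of all protein-coding genes. The 1 gene was E2f1, the cell-cycle transcription factor listed with tara, whose absent summit had a signal of 116 beside a present one of 122. By group, a present summit was found at 4 of 7 cell-cycle genes listed with tara, at 7 of 12 KLF, SP and JNK pathway genes listed with cbt, and at 2 of 6 genes of cap-dependent translation and ERK signalling listed with Lk6. It was found at 4 of 10 Polycomb and histone demethylase genes listed with Kdm2 and 4 of 6 genes of RNA-binding La-family proteins, their partners and mitochondrial quality control listed with larp. The counts were 4 of 9 for chromatin remodelling genes listed with pont, 3 of 6 for transcription elongation and AF10-linked genes listed with Alh, and 4 of 7 for bHLH leucine-zipper genes listed with crp.

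Beyond the 8 genes, 3 of the 10 absent peaks of highest signal belonged to other loci, all on 3R. One lay at -111 bp from CG18428 (3R:24109053-24109361) with a signal of 710, and 420 in replicate 1 and 294 in replicate 2. Another lay in an intron 3018 bp past a TSS of trx, the trithorax histone methyltransferase gene (3R:14283753-14284005), with 655, and 310 in replicate 1 and 345 in replicate 2. The last lay at -260 bp from CG6966 (3R:15095785-15096008) with 434, and 185 in replicate 1 and 245 in replicate 2. The trx and CG18428 peaks ranked above those of pont and Alh, and the CG6966 peak above every summit of Kdm2 and crp.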

How the data were processed

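ChIP-seq peak lists of 2 replicates of 1 group were analysed. The coordinates are dm6, per the labels; of aligner, peak caller and versions, names were not given in the sources used here. Each deposited peak carries a signal, with no normalization stated by the authors, and a score that rises with reproducibility between lists (IDR). Ranks were read within a list. The log2 ratios of replicate 1 to replicate 2 set 2 lists against each other with no rescaling, so a difference in scale between the lists would be part of each ratio. The members and lists were chosen with earlier results of these data known.

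The ranked list made from the true replicates was told from the other by its partner peaks, of which 99.7% and 99.0% at the score stood in the own lists of replicates 1 and 2. A ranked peak with a score of at least 830 was present when the authors' conservative list held the same start, end and summit, and otherwise absent. Replicate signals came from the nearest summit within 150 bp in each replicate's own ranked list. Genes and TSSs came from Ensembl release 115 and bases from the RefSeq copy of the assembly, and coordinates are 1-based. Second places in the genome were sought with BLAST 2.17.0. Gene names of the pathway lists were also matched through synonyms; Tor was not matched. Genes named beside the 8 were those of the pathway lists with an absent summit, protein-coding neighbours within 5 kb of an absent summit, and the nearest genes of the 10 strongest absent peaks. The limit of the count of 0 is 3 counts. The marking of absent peaks was tested on the ranked list with random peaks removed. The motif search was tested on made-up sequences and the promoter class on annotated TSSs. Counting overlapping peaks once was tested on a small made-up list, and the other steps were not tested this way. Alternatives were other distances, scores, overlap rules, lists, single replicates and windows. Tools were numpy 2.4.6, matplotlib 3.10.9, pandas 2.3.3 and scipy 1.17.1 under Python 3.11.15.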

Additional observations from a re-analysis of the deposited data

How the results depend on the processing

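Counting summits inside the genes alone gave 16 absent and 6 present summits at the 8 genes and an absent summit at 0.251% of all protein-coding genes. Within 2 kb there were 22 absent and 9 present summits and the share of genes was 0.587%, and within 10 kb it was 1.37%. Against the larger thresholded list, 11.5% of ranked peaks were absent and 5.85% of genes had an absent summit, or 9.31% and 4.60% when any overlap counted as present, a choice made after seeing the data. The other ranked list against the larger list gave 3.32% and 1.10%, with 31 absent and 18 present summits at the 8 genes. With one replicate left out, the 8 genes had 23 to 24 absent and 10 to 17 present summits, 2.50 to 6.28% of ranked peaks were absent, and 0.809 to 0.830% of genes had an absent summit; the low present count and the 6.28% came without replicate 1. The cause of these shifts was not tested. Higher scores, other rules for a present peak, the arms alone and overlapping peaks counted once left the 4 values within 1.5 times, with 22 to 25 absent summits. The arms alone were likewise a choice made after seeing the data. All 72 alternative replicate signals and ratios, run for the strongest absent summit of each gene alone, equalled the main values. At these summits the matching peaks lay less than 50 bp away, so limits of 50 and 300 bp had to return them. Taking the strongest overlapping peak gave the same values too. Summits with larger offsets, up to 127 bp in replicate 2, were not run this way. The ranked list also carries columns for the partner peak of each replicate, without a header. Their positions served to tell the ranked lists apart, and no alternative replicate signal was taken from these columns. Of the alternative motif counts, 16 moved by more than 1.5 times and 29 did not. GAGAG was at 2 summits within 50 bp, fewer than the 3 of CGATA, and at 13 within 150 bp. TGAGTG was at 1 summit within 50 bp and at 10 within 150 bp, and TGACTCA at 0 within 50 bp. Promoters of 250 bp held 6 of the absent summits. No paired analysis was possible because the series has 1 group. Unknown depth, a single strain and the lack of a control library analysed here limit every value.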
